A study of Rattus norvegicus with 6 samples.

Results

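The expression of 10 genes of the Notch pathway was compared between H9c2 WT and Nono-KO cells. They were the receptors Notch1, Notch2 and Notch3, the ligands Jag1, Jag2 and Dll1, the nuclear partner Rbpj, and the effectors Hes1, Hey1 and Heyl. The members are named by gene symbol, and the set was chosen with earlier results of these data known. All 10 of 10 had a row among the 16319 genes of the count table. RNA-seq was performed on 6 libraries of rat H9c2 cells, a myoblast line from embryonic heart, with 3 libraries from WT cells and 3 from Nono-KO cells. Both groups were grown in DMEM with fetal bovine serum. The Nono-KO cells came from transfection of a plasmid with Cas9, a puromycin resistance gene and a guide against Nono, followed by puromycin. The 20-base guide, read from the submitters' protocol, is shown because it defines the knockout group.
Nono guide: ATTTCCTCGGCCTGTGACTG
pEGFP-N1 was named as the control plasmid, and the labels do not say whether the sequenced WT cells received it. The knockout line is drawn in the study as the expansion of a single clone, so effects of the clone and of the knockout cannot be told apart. No label says that the libraries of a group came from separate cultures, though the methods call them biological replicates. The p-values therefore measure the spread between these libraries, which may be technical.

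Notch receptors are membrane proteins that are activated by ligands of the Jagged and Delta-like families on a neighbouring cell. The bound receptor is cut first by an ADAM protease and then by γ-secretase, and its intracellular domain moves to the nucleus. There it binds Rbpj, a DNA-binding protein that otherwise recruits corepressors, and with coactivators of the Mastermind family it turns on genes of the Hes and Hey families of bHLH repressors. Notch signaling is known to hold back the differentiation of myoblasts, and it has roles in the development of the heart and of vascular smooth muscle.

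The total count was between 17612958 and 19253858 per library, and the groups overlapped in depth. Counts of Nono itself were 7329, 5884 and 5519 in WT but 109, 94 and 96 in Nono-KO libraries. Counts were scaled to library size with TMM factors, given as CPM, and tested with edgeR over the 12028 genes that passed its filter on low counts. A gene is said to rise or fall at a Benjamini-Hochberg adjusted p under 0.05. By this rule 34.2% of all tested genes rose and 38.1% fell, so a change in a single gene was common in this comparison. The libraries carry the label cardiac muscle, and Nkx2-5, Gata4 and Tnnt2 were detected, at 20.9, 15.9 and 58.1 CPM as WT means. In contrast, Tbx5 had 0 counts in WT, Nppa at most 2 counts in any library, and the myosin gene Myh6 a mean of 0.77 CPM in WT. The myoblast genes Cdh15 and Myod1 had 486 and 126 CPM in WT. Of the same list of 8, Des, Myog and Chrna1 had WT means of 22.1, 6.50 and 0.32 CPM, and 3 had no row in the count table. Pecam1 and Kdr, which define endothelial cells, had at most 3 counts in any library. Flt1 and Egfl7 of the endothelial marker list had WT means of 238 and 26.0 CPM.

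Promoter sequences were examined for a short DNA word of Rbpj because 1 effector, Hes1, is a textbook target of Rbpj. RefSeq windows of the build GRCr8 were found for 9 of the 10 members, in 11 windows, and the 250 bases before each annotated start were searched on both strands. Hey1 had no window and was not searched. TGGGAA, a word taken here as the Rbpj core, occurred in 22.1% of all 33469 windows of this length at least once and in 2.71% at least 2 times. Only this exact word was searched, without its flanking bases. A match therefore need not be an Rbpj site, and variant sites in the printed windows are not marked. The Hes1 window held 2 matches, at 123 to 118 and at 109 to 104 bases before the start, both on the strand of the gene. Rbpj has 2 annotated starts with overlapping windows, and the window further upstream held 2 matches on opposite strands. The Dll1 window held 2 matches too, at 185 to 180 and at 82 to 77 bases before the start, and Dll1 had counts in Nono-KO libraries only. The Hes1 and Rbpj windows are shown because both genes had enough counts for the test, with the matches in capitals (TTCCCA is the match on the other strand).
Hes1, GRCr8 chr11:84213046-84213295, minus strand: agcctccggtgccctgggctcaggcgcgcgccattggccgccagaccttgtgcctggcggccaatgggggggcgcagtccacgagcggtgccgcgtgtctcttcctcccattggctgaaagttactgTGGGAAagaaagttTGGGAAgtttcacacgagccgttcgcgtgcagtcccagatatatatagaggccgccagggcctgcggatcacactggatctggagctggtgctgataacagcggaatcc
Rbpj, GRCr8 chr14:61615439-61615688, minus strand: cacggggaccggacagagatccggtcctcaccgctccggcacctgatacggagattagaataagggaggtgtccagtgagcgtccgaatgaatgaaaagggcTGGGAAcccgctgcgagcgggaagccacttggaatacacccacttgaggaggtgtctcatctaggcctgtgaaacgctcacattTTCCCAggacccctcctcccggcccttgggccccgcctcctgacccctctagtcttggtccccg

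CACNAG, the N-box that Hes proteins bind, was present in 37.2% of all windows at least once and in 8.02% at least 2 times. The Hes1 and Notch1 windows each held 4 matches, of which 2 in Notch1 overlap each other, and the Notch3 window held 1. No match of either word was found in the windows of Notch2, Jag1, Jag2 and Heyl, which says only that these letters are not in this stretch. No match of the Rbpj word overlapped an N-box in these windows. Whether Rbpj or a Hes protein was bound was not measured here.

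**Figure D1:**
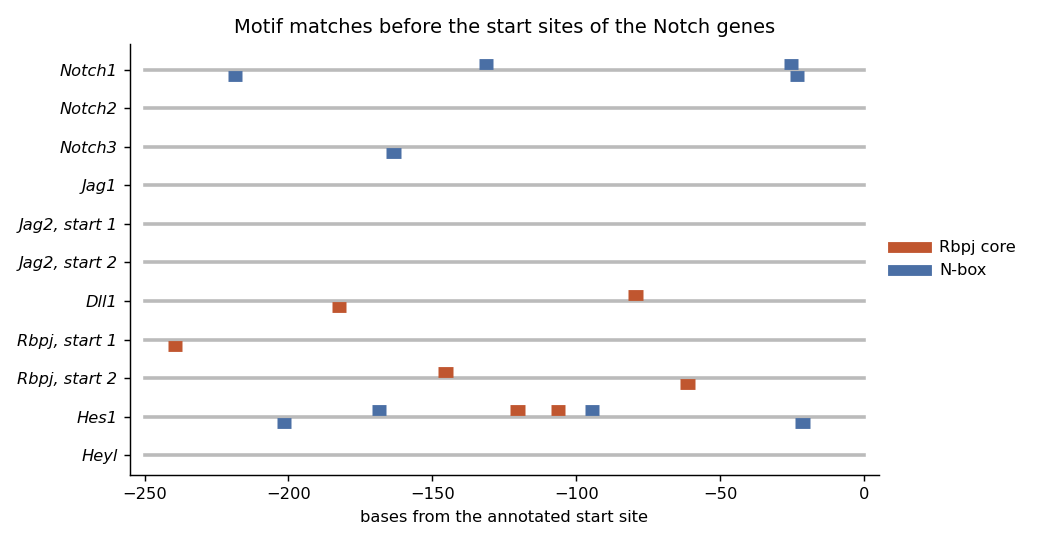
Matches of the Rbpj core (orange) and of the N-box (blue) in the 250 bases before each annotated start site of 9 Notch genes (horizontal axis, bases from the start). Blocks above a line are on the strand of the gene and blocks below it on the other strand, and Hes1 is seen with 2 Rbpj matches side by side and 4 N-boxes.

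The receptors moved in opposite directions. Notch1 and Notch3 rose and Notch2 fell, and for each of these genes no Nono-KO library crossed into the WT range. Across all tested genes the groups did not overlap in 75.1%, so the separation alone does not set the receptors apart. A lower level in these bulk libraries can come from fewer cells with the RNA or from less RNA per cell, which cannot be told apart.

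Counts of Notch1, the best studied of the receptors, were 492, 528 and 614 in WT and 1785, 1851 and 1891 in Nono-KO libraries. The WT mean was 29.0 ± 4.88 CPM and the Nono-KO mean 102 ± 2.18 CPM (SD, n = 3 each). The lowest Nono-KO library, at 100.1 CPM, was above the highest WT library, at 34.2 CPM. In edgeR the log2 fold change was 1.83 ± 0.12 (SE) with an adjusted p of 1.86e-07. Notch3, a receptor known for its role in vascular smooth muscle, had 1020, 685 and 801 counts in WT and 2216, 2847 and 2290 counts in Nono-KO libraries. WT replicate 1 was the highest of the WT libraries and Nono-KO replicate 2 the highest of all, and no library crossed between the groups. The WT mean of 44.0 ± 7.08 CPM and the Nono-KO mean of 136 ± 19.5 CPM (SD, n = 3 each) differed by 1.63 ± 0.13 (SE) on the log2 scale in edgeR, with an adjusted p of 9.84e-07.

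Notch2, a receptor that is broadly expressed in many tissues, went the other way. Its counts were 5613, 5236 and 5866 in WT and 1565, 1585 and 1607 in Nono-KO libraries. The Nono-KO libraries were close to each other and far under the WT libraries. The mean of 88.3 ± 3.22 CPM in Nono-KO cells was 3.34-fold lower than the 295 ± 27.0 CPM of WT (SD, n = 3 each), with a log2 fold change of -1.74 ± 0.09 (SE) and an edgeR adjusted p of 5.23e-08.

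The receptor counts were also compared within each library, where the scaling between libraries plays no part. This comparison was added after the counts had been seen. Notch2 held 78.7%, 81.0% and 80.4% of the counts of the 4 Notch receptors in WT, but 28.0%, 25.2% and 27.6% in Nono-KO libraries. The exact 95% binomial intervals lay between 77.7% and 82.0% in WT and between 24.1% and 29.2% in Nono-KO cells, and cover counting error only. The share of Notch1 went from 7.83% ± 0.82 (SD, n = 3) to 31.3% ± 1.67 (SD, n = 3). That of Notch3 went from 12.0% ± 2.04 (SD, n = 3) to 41.4% ± 3.28 (SD, n = 3). Counts were not divided by transcript length, so a share says nothing of which receptor has more molecules, and the size of its change would differ on a molecule basis. The ratio of Notch1 to Notch2 counts was 0.0877, 0.101 and 0.105 in WT but 1.14, 1.17 and 1.18 in Nono-KO libraries. The relative change of such a ratio does not depend on length if each gene's transcripts are equally long in both groups. Transcript forms were not examined here. The summed receptor level was 355, 346 and 406 CPM in WT but 327, 351 and 308 CPM in Nono-KO libraries, and here the groups overlapped. The shares were not tested, since with 3 libraries a group the smallest exact two-sided permutation p is 0.1.

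**Figure D2:**
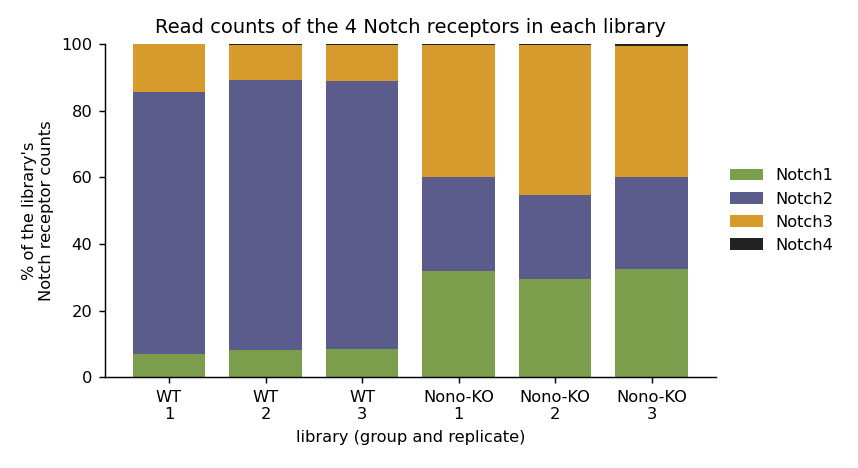
Share of each Notch receptor (vertical axis, % of the summed Notch1, Notch2, Notch3 and Notch4 counts of a library) in the 6 libraries (horizontal axis). Each bar is 1 library, and Notch2 takes at least 78.7% of the counts in WT but at most 28.0% in Nono-KO cells.

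Of the ligands, Jag1 was the only member with enough counts for the test. Jag1 encodes a Jagged ligand and had 1024, 963 and 949 counts in WT and 629, 684 and 787 counts in Nono-KO libraries. The WT libraries lay within a narrow range, at 51.0 to 52.8 CPM, and the highest Nono-KO library was at 41.7 CPM. The WT mean of 51.8 ± 0.96 CPM was 1.33-fold higher than the Nono-KO mean of 38.9 ± 2.53 CPM (SD, n = 3 each), with a log2 fold change of -0.41 ± 0.09 (SE) and an edgeR adjusted p of 0.00133. This was the change nearest to 0 of the 6 members tested.

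Rbpj, the DNA-binding partner of all Notch receptors, was the member with the largest change among those tested. Its counts were 1257, 1733 and 1546 in WT but 206, 218 and 206 in Nono-KO libraries. WT replicate 1 was lower than the other WT libraries, at 62.5 CPM against 92.7 and 86.0 CPM, and the Nono-KO libraries lay at 10.9 to 12.1 CPM. The WT mean of 80.4 ± 15.8 CPM was 6.87-fold higher than the Nono-KO mean of 11.7 ± 0.68 CPM (SD, n = 3 each), and edgeR gave a log2 fold change of -2.78 ± 0.15 (SE) with an adjusted p of 5.89e-08. The pseudogene Rbpjl2, which is similar to Rbpj, had 3 counts in 1 WT library and 0 in the others. How reads shared by such copies were counted is not stated, so a part of the Rbpj counts is uncertain.

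Hes1, a bHLH repressor and a common readout of Notch activity, had 934, 964 and 837 counts in WT and 484, 455 and 509 counts in Nono-KO libraries. All WT libraries were at 46.5 CPM or more and all Nono-KO libraries at 28.3 CPM or less. The WT mean of 48.2 ± 2.90 CPM was 1.79-fold higher than the Nono-KO mean of 26.9 ± 1.49 CPM (SD, n = 3 each), and edgeR gave a log2 fold change of -0.84 ± 0.10 (SE) with an adjusted p of 1.1e-05. The Hes1 window with 2 Rbpj matches is shown above, and a link of these matches to the fall of Hes1 was not tested.

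**Figure D3:**
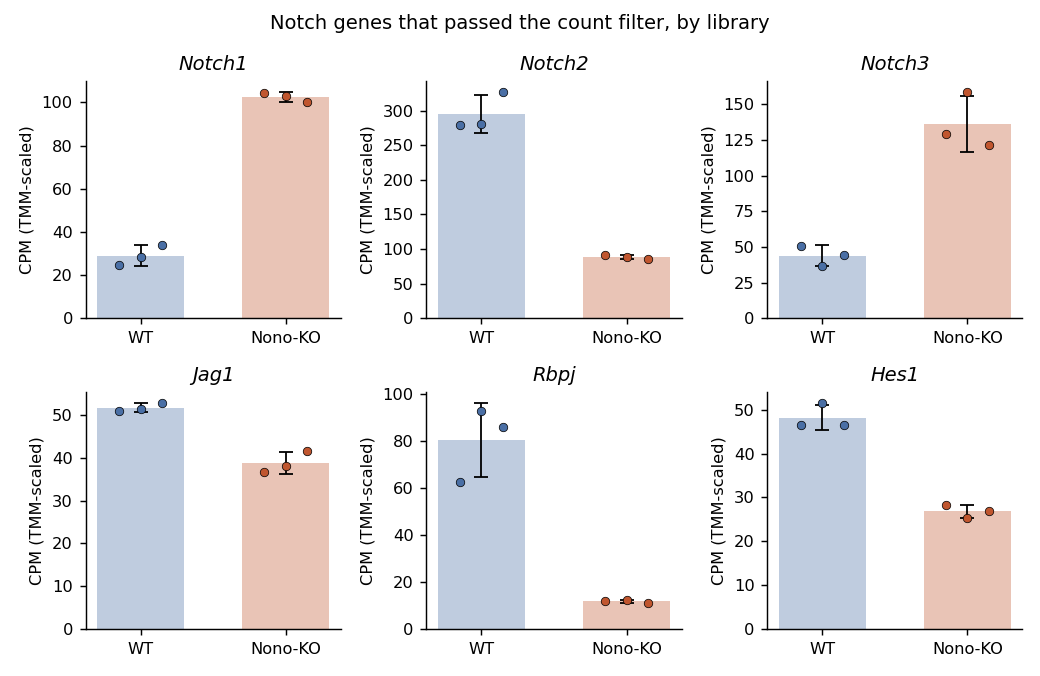
CPM after TMM scaling (vertical axes, each from 0) of the 6 Notch members that passed the filter, in WT and Nono-KO cells (horizontal axes). Bars show means with SD as error bars, each point is 1 library, and the points of both groups stay apart in every panel, with Notch1 and Notch3 higher and Notch2, Jag1, Rbpj and Hes1 lower in Nono-KO cells.

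Thus 2 of the 6 tested members rose and 4 fell, beside 34.2% and 38.1% of all tested genes. The study's thresholds for differentially expressed genes (DEGs) are an adjusted p under 0.01 with a log2 fold change over 1 in size. By these Notch1, Notch2, Notch3 and Rbpj remained, that is 4 of 6, whereas 29.5% of all tested genes were DEGs.

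The other 4 members were near the limit of detection and did not pass the filter. Jag2, a Jagged ligand, had 4, 1 and 2 counts in WT and 5, 5 and 4 counts in Nono-KO libraries. The ratio of the group totals, scaled by TMM, was 2.11 (exact 95% interval 0.795 to 6.16, counting error only), so a difference was not detectable at this depth. Dll1, a Delta-like ligand, had 0 counts in all WT libraries and 2, 4 and 0 counts in the Nono-KO libraries. Set against a floor of 3 counts over the WT group, the Nono-KO total of 6 counts was 2.11-fold higher. This ratio leaves out the counting error of the 6 counts, so it is not a lower bound. Without Nono-KO replicate 2 the other Nono-KO libraries held 2 counts, under that floor. With no filter the adjusted p of Dll1 from edgeR was 0.0543. In RefSeq the start of Dll1 overlaps the gene Fam120b, and whether the counting used strand is not stated, so these few reads are uncertain.

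Hey1 and Heyl, hairy-related bHLH repressors, were as sparse. Hey1 had 11, 6 and 3 counts in WT and 3, 2 and 3 counts in Nono-KO libraries, and the groups overlapped at 3 counts. The ratio of totals was 0.42 (exact 95% interval 0.16 to 0.998, counting error only), but with no filter the adjusted p from edgeR was 0.112. Heyl had 3, 1 and 1 counts in WT and 6, 7 and 2 counts in Nono-KO libraries, and these ranges overlapped too. Its ratio of totals was 3.16 (exact 95% interval 1.09 to 11.1, counting error only), and with no filter the adjusted p from edgeR was 0.0952. Neither Hey1 nor Heyl passed the threshold once adjusted over all genes. The highest WT count of Hey1, Heyl and Jag2 was in WT replicate 1. Without it the log2 ratio of Heyl went from 1.66 to 2.35, that of Jag2 from 1.07 to 1.67 and that of Hey1 from -1.25 to -0.73.

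**Figure D4:**
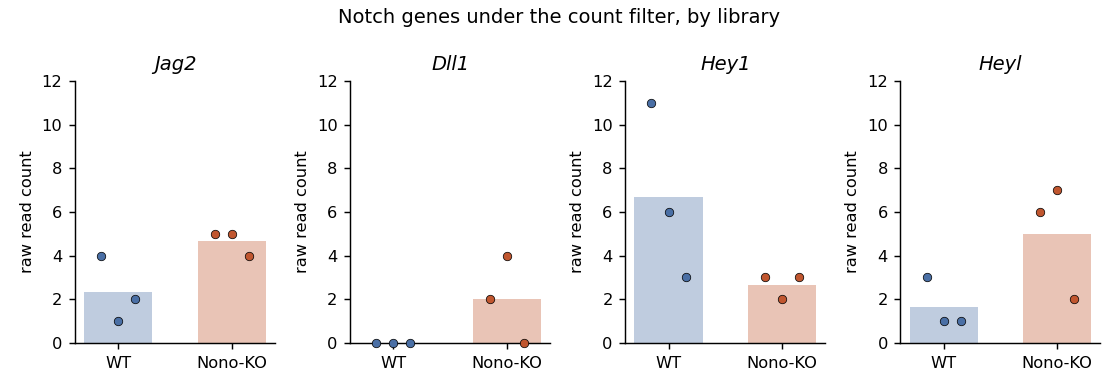
Raw read counts (vertical axes) of Jag2, Dll1, Hey1 and Heyl in WT and Nono-KO cells (horizontal axes). Each point is 1 library and bars give the means, and no library of these genes goes above 11 counts.

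A wider list of 72 Notch pathway genes, without the 10 members, was grouped by role to place these values. Of its genes 69 were in the table and 63 were tested in edgeR. At an adjusted p under 0.05, 36 of these fell, 14 rose and 13 did not pass, where 38.1% of all tested genes fell and 34.2% rose. The median log2 fold change was -0.52, against -0.05 for all tested genes.

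Among the other receptors and ligands, Notch4 had 9, 15 and 13 counts in WT and 20, 15 and 27 counts in Nono-KO libraries, with an adjusted p of 0.0529 from edgeR. Dll3, a Delta-like protein, was sparse too and rose (4, 7 and 8 counts against 29, 16 and 17). Dll4, a ligand of vessels, had 1 count in 1 Nono-KO library and 0 elsewhere. Dner, a Notch ligand of neurons, fell to 0.71 ± 0.11 CPM in Nono-KO cells, from 7.55 ± 2.46 CPM in WT (SD, n = 3 each). Dlk2, a Delta-like protein without the usual receptor-binding domain, was at 15.8 ± 2.65 and 16.6 ± 2.10 CPM (SD, n = 3 in each group) and overlapped between the groups.

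The enzymes that put sugars on Notch were split, as 2 rose and 2 fell of 4 tested. The Fringe genes went opposite ways, with Lfng lower at 171 ± 10.4 CPM, against 328 ± 61.0 CPM in WT (SD, n = 3 each), and Rfng higher by 0.51 ± 0.11 (SE) on the log2 scale. Pofut1, the O-fucosyltransferase, rose by 0.41 on the log2 scale, and Poglut1, the O-glucosyltransferase, fell by 0.78 on the log2 scale. Of 9 genes for the cuts of the receptor 4 fell, 2 rose and 3 did not pass. Among those that fell were Furin, which makes the first cut in the Golgi, with a log2 fold change of -0.75, and the sheddases Adam10 (-1.30) and Adam17 (-0.65). The 2 that rose were the γ-secretase genes Psen2 and Aph1a, by 0.58 and 0.40 on the log2 scale. The γ-secretase subunits Ncstn and Psenen did not pass.

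Of 13 tested ubiquitin ligases and trafficking genes 6 fell, 4 rose and 3 did not pass. Mib1, the ligase that lets ligands be endocytosed, fell to 2.37 ± 0.20 CPM from 9.28 ± 2.47 CPM in WT (SD, n = 3 each), while its paralog Mib2, named after its value was seen, rose by 1.06 on the log2 scale. The ligase Itch and the kinase Aak1 fell too, with log2 fold changes of -1.98 and -1.20. Dtx4, of the Deltex family, rose to 35.9 ± 1.18 CPM from 8.27 ± 1.74 CPM in WT (SD, n = 3 each). Numbl, a relative of the Notch inhibitor Numb, differed by 0.01 ± 0.11 (SE) on the log2 scale and did not pass.

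Most genes listed as coactivators or corepressors were lower. Of 10 coactivators 9 fell and 1 rose, with a median log2 fold change of -0.75, beside 38.1% of all tested genes that fell and 34.2% that rose. By log2 fold change, the acetyltransferases Ep300 (-1.84) and Crebbp (-1.51), Maml2 of the Mastermind family (-1.82) and the Mediator kinase Cdk8 (-1.03) fell the most, and Kat2a, another acetyltransferase, rose by 0.44 on the log2 scale. Of 17 corepressors 12 fell, 2 rose and 3 did not pass, with a median of -0.54, beside the same shares over all tested genes. Of those at 5 CPM or more, the largest falls on the log2 scale were -1.59 for Ncor1, -1.54 for Tle1, -1.36 for Ctbp2 and -1.20 for Sin3a. Tle5, a short Groucho-type protein, rose to 1513 ± 77.2 CPM from 780 ± 70.6 CPM in WT (SD, n = 3 each).

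The other effectors did not move one way. Nrarp, a Notch target that feeds back on the pathway, fell, with a log2 fold change of -0.56 ± 0.14 (SE). Bhlhe40, a bHLH repressor related to the Hes family, fell to 59.1 ± 2.21 CPM from 164 ± 5.89 CPM in WT (SD, n = 3 each). Hes6, which is known to oppose Hes1 and to favour muscle differentiation, rose to 63.6 ± 1.47 CPM from 23.9 ± 1.60 CPM in WT (SD, n = 3 each). Hey2 did not pass the filter, with 17, 7 and 9 counts in WT and 3, 4 and 0 counts in Nono-KO libraries. Rbpjl, the Rbpj-like factor of the pancreas, was named after its counts were seen, at 4, 4 and 2 in WT and 43, 38 and 42 in Nono-KO libraries.

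**Figure D5:**
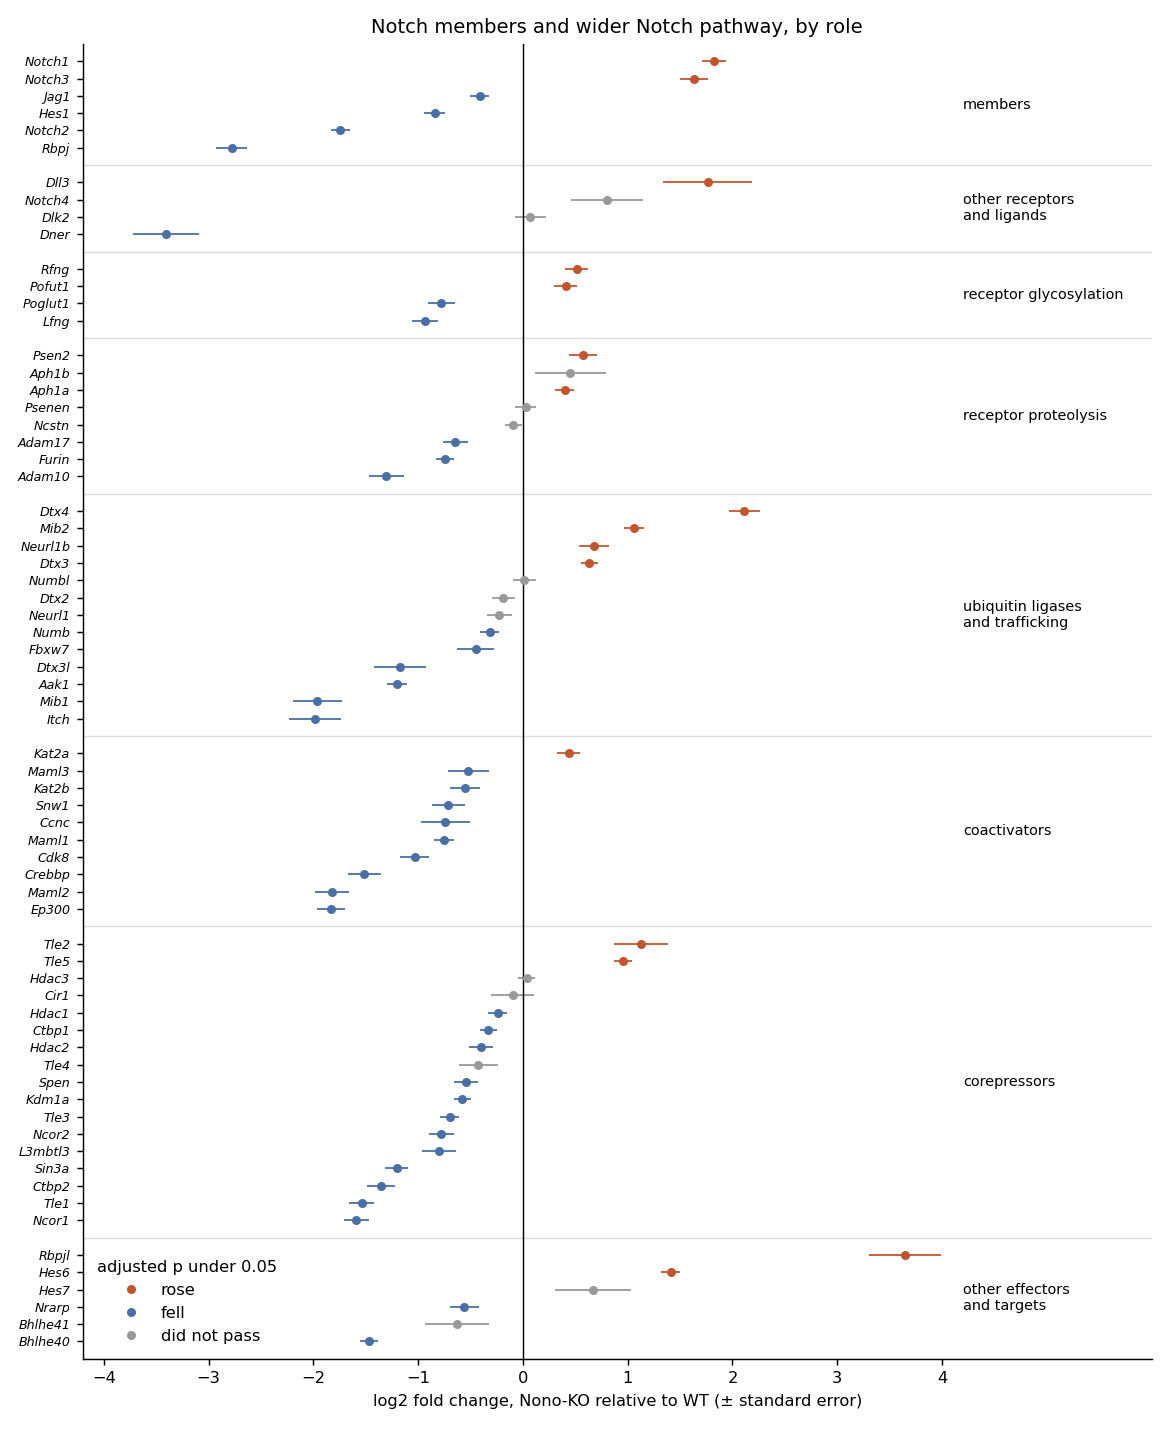
Nono-KO minus WT on the log2 scale (horizontal axis), with standard errors as bars, for the 6 tested members and the tested genes of the wider list, 1 of which is not shown, grouped by role. Orange points rose, blue points fell and grey points did not pass, and 9 of the 10 coactivators lie to the left of 0.

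Markers of muscle and of other cell types were also compared between the groups. Of all tested genes 34.2% rose and 38.1% fell, and the counts of markers below stand beside these shares. Of 7 smooth muscle markers 5 rose, 1 fell (Myocd) and 1 did not pass. Their summed level was 6765 to 7628 CPM in WT and 14630 to 15710 CPM in Nono-KO libraries. Acta2 and Tagln, with the highest CPM of the list, had log2 fold changes of 1.13 and 1.22. Of 8 myoblast markers 5 were in the table and 4 tested, of which Des and Myog, the myogenic factor of differentiation, rose and 2 did not pass, with a summed level of 565 to 748 CPM in WT and 870 to 968 CPM in Nono-KO libraries. Of 10 endothelial markers 9 were in the table and 3 tested, with Flt1 (-2.55) and Vwf (-2.07) falling and Egfl7 (0.99) rising. Tek had at most 4 counts and Tie1 at most 8 counts in any library, and the summed level of 189 to 311 CPM in WT and 84.8 to 101 CPM in Nono-KO libraries came mostly from Flt1 and Egfl7. Of 4 tested pericyte markers 3 fell, of 4 tested fibroblast markers 3 fell and Thy1 rose, and of 6 cardiomyocyte markers tested 3 rose. Summed levels went from 572 to 687 CPM in WT to 434 to 456 CPM in Nono-KO libraries for pericytes, led by Pdgfrb and Abcc9. For fibroblasts they went from 34210 to 41830 CPM to 25220 to 30090 CPM, led by Col1a2 and Col1a1. Pdgfra, Lum and Dcn of this list had at most 5, 9 and 1 counts in any library. For cardiomyocytes the summed levels went from 48.2 to 128 CPM to 178 to 205 CPM, led by Tnnt2 and Nkx2-5. Tnnt2 itself did not pass (adjusted p of 0.18 from edgeR), with WT replicate 1 at 13.4 CPM and the other WT libraries at 78.0 and 83.0 CPM. Of 6 leukocyte markers 3 were in the table and 2 tested, of which Cd3e rose from 6.00 to 50.8 CPM and Cd68 did not pass, while Itgam had 0 counts in 5 libraries, and the summed level was 4.68 to 8.02 CPM in WT and 49.9 to 52.9 CPM in Nono-KO cells. The part of these markers in the changes of the Notch genes was not tested.

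Genes with a like pattern were sought for Notch2, Jag1 and Hes1, which have the highest CPM of the receptor, ligand and effector members. On log2 CPM over the 6 libraries, the highest Pearson r with Notch2 among 8023 other genes was that of Stk24 (0.999), Rreb1 (0.999) and Map3k6 (0.999). With Jag1 it was that of Cramp1 (0.999), Maco1 (0.999) and Mxi1 (0.998), and with Hes1 that of Dcaf6 (0.999), Gusb (0.999) and Erp44 (0.999). These values are a description, since the 6 points form 2 groups and most genes in the table differ between them.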

How the data were processed

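Stranded poly(A) RNA-seq libraries of 3 WT and 3 Nono-KO samples were grouped by the genotype in the labels. The authors deposited raw counts per gene symbol, not scaled and not pooled. The submitters' processing notes list the build mRatBN7.2 and the tools HISAT2, HTSeq and Trimmomatic, whereas the methods name Bowtie2 and Rn6. Annotation and strand setting: not given in the sources used here. Each of the 6 single-library files was identical to its column of the table.

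Counts were analysed with edgeR 4.0.16 in R 4.3.3 (TMM, filterByExpr, robust quasi-likelihood test, Benjamini-Hochberg over 12028 genes, with 4291 left out). Standard errors were derived from the log2 fold change and the F statistic (size of the change over root F). The fit was tested on simulated data. Totals of 17612958 to 19253858 counts leave genes with a few counts without a precise fold change. Intervals cover counting error only, and the floor covers that of the WT counts only.

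Members and lists were chosen with earlier results of these data known. Named genes are Nono, the members, per role the 4 largest passing changes at 5 CPM or more in the higher group plus the most abundant one, the 2 most abundant markers per cell type, markers at 0 that define a type, and the 3 genes most like the most abundant receptor, ligand and effector (mean of 10 CPM or more). Genes named outside this rule (Notch4, Dll3, Dll4, Mib2, Psen2, Aph1a, Ncstn, Psenen, Rbpjl, Hey2 and further markers) were chosen after their values were seen. The values of 1 gene named by the rule are not reported here. Transcript lengths were not used here, so CPM ranks used to name genes are ranks of counts, not of molecules. Alternatives were DESeq2 1.42.0, other scalings and filters, thinning, a replicate block and leaving out each library.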

Additional observations from a re-analysis of the deposited data

How the results depend on the processing

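All counts of rising (2) and falling (4) members, and of members past the DEG thresholds (4), were the same under every alternative run: DESeq2, its size factors with edgeR, total counts, no filter, at least 1 CPM in 3 libraries, thinning to the smallest total, the replicate block, and leaving out each library (for rises and falls also an adjusted p under 0.01). Over these, the log2 fold change ranged from 1.71 to 1.95 for Notch1, -1.80 to -1.67 for Notch2, 1.51 to 1.74 for Notch3, -0.47 to -0.36 for Jag1, -2.94 to -2.67 for Rbpj and -0.90 to -0.79 for Hes1, and the highest adjusted p was 0.0133, for Jag1. In the wider list 13 to 15 genes rose and 31 to 39 fell.

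The libraries share replicate numbers across the groups, and the labels do not say whether these pair them. Deviations from the group means of same-numbered libraries had correlations across genes of 0.045, -0.165 and -0.192. Those of differently numbered libraries ranged from -0.125 to 0.251. Such values cannot show whether same-numbered libraries were prepared together. With the replicate block 8387 genes were called against 8686 without it, and the log2 fold change of Rbpj was -2.76. Depth limits Jag2, Dll1, Hey1 and Heyl, for which 3 counts over the WT group are 0.053 CPM.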
